A study of Arabidopsis thaliana with 96 samples.

Results

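The comparison set leaves of Arabidopsis thaliana grown under mid light against leaves grown under low light, both fed with 5 mM nitrate. Sample titles gave the groups: 8 libraries belong to Mid light at 5 mM nitrate and 8 to Low light at 5 mM nitrate, 16 of the 96 libraries of the series, each made from 1 plant. All 16 plants were the wild-type accession Col-0, germinated on Murashige and Skoog plates with sucrose, moved to calcined clay pots 10 days after germination and watered with Hoagland's solution at the same 5 mM nitrate, under 8 h days and 16 h nights. Low light was a photon flux density of 100 µmol m-2 s-1 and mid light 250 µmol m-2 s-1, and 2 leaf punches per plant were frozen on day 30 after transplanting. The whole series crosses 3 light levels with 4 nitrate doses at 8 plants each, so that the mid and low light plants at 2, 10 and 20 mM, 48 libraries, serve below to ask where the change at 5 mM differs. A leaf punch mixes epidermis, mesophyll and veins, and in such bulk tissue fewer cells of a type and less RNA per cell cannot be told apart.

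As background, leaves given more light fix more carbon, store part of it as starch by day and use it by night, reduce the nitrate they take up with electrons from photosynthesis, and screen surplus light with anthocyanins and other flavonoids. Leaves held in dimmer light are known to invest more in light-harvesting antenna and chlorophyll, and in expanding their blades. Nitrate is both a nutrient and a signal: its transporter NPF6.3 also senses it, and NIN-like transcription factors and their repressors set the genes that answer it.

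The 16 libraries held between 9923608 and 16087620 counted reads. RBCS1A, the most abundant small subunit of Rubisco, lay between 2580 and 22030 CPM (counts scaled to library size) and the 4 root markers summed to at most 29.97 CPM in any library, with medians of 0.0799 in low and 0.0761 in mid light, as the leaf label says. Low light replicate 1 stood apart: its mean rank correlation with the other low light libraries was 0.827, where those had 0.916 to 0.951, and mid light replicate 2 was the least like its own group at 0.884. The library codes fall into 4 sets of consecutive numbers, each with 2 plants of either light, and the labels do not say what the sets stand for. They entered the test as a block. The 10 most abundant genes took 9.77% ± 1.09 (SD, n = 8) of the reads in low and 8.00% ± 1.78 (SD, n = 8) in mid light, lower in all 4 code sets, by an exact two-sided permutation test within code sets p = 0.00309 (adjusted 0.00926 over 3 shares). The share of chloroplast-encoded genes was 3.65% ± 0.696 (SD, n = 8) against 3.19% ± 0.668 (SD, n = 8), a difference with exact permutation p = 0.0895, and that of mitochondrial genes 0.188% against 0.215% with exact permutation p = 0.387 (n = 8 each). The part of these shares in the gene results was not tested.

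Genes of anthocyanin synthesis and of starch metabolism were higher in mid light, and genes of chlorophyll synthesis, cell expansion and cuticle wax were lower, in the numbers given for each list below. Of 17663 genes with enough counts to test, 1076 (6.09%) passed an adjusted p of 0.05 (quasi-likelihood test of edgeR, Benjamini-Hochberg adjustment): 618 were higher in mid light (3.5% of those tested) and 458 lower (2.59%). A change of at least 2-fold was found for 267 of the higher and 189 of the lower genes. Among the tested genes the 8 low and 8 mid light values did not overlap for 57 (0.323%), and 55 of these 57 passed the test. The change had the same sign in all 4 code sets for 1067 of the 1076 genes. Changes below are log2 mid minus low light from this test with their standard errors, and p-values are its adjusted ones. Expression levels are CPM, given as the lowest, median and highest of the 8 plants of a group.

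The count depended on the block and on single plants. For 86 called genes named here, all but HB5, for which the alternatives were not run, the sign reversed under none of the alternatives. This is no independent support, since the alternatives reuse the same libraries and the genes were chosen for passing the test on them. Without the block 204 genes passed, and with code set 2 left out 44, with set 3 left out 111 and with set 4 left out 703. Of the genes on the lists below, 74 passed in the main test, 6 with code set 2 left out and 12 with set 3 left out. Leaving out low light replicate 1 raised the count to 2117, mid light replicate 6 to 1560 and mid light replicate 7 to 2179. Omitting any other plant lowered it. In low light the counts were 829, 383, 397, 450, 703, 682 and 777 without replicates 2, 3, 4, 5, 6, 7 and 8. In mid light they were 780, 821, 546, 772, 419 and 793 without replicates 1, 2, 3, 4, 5 and 8.

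**Figure D1:**
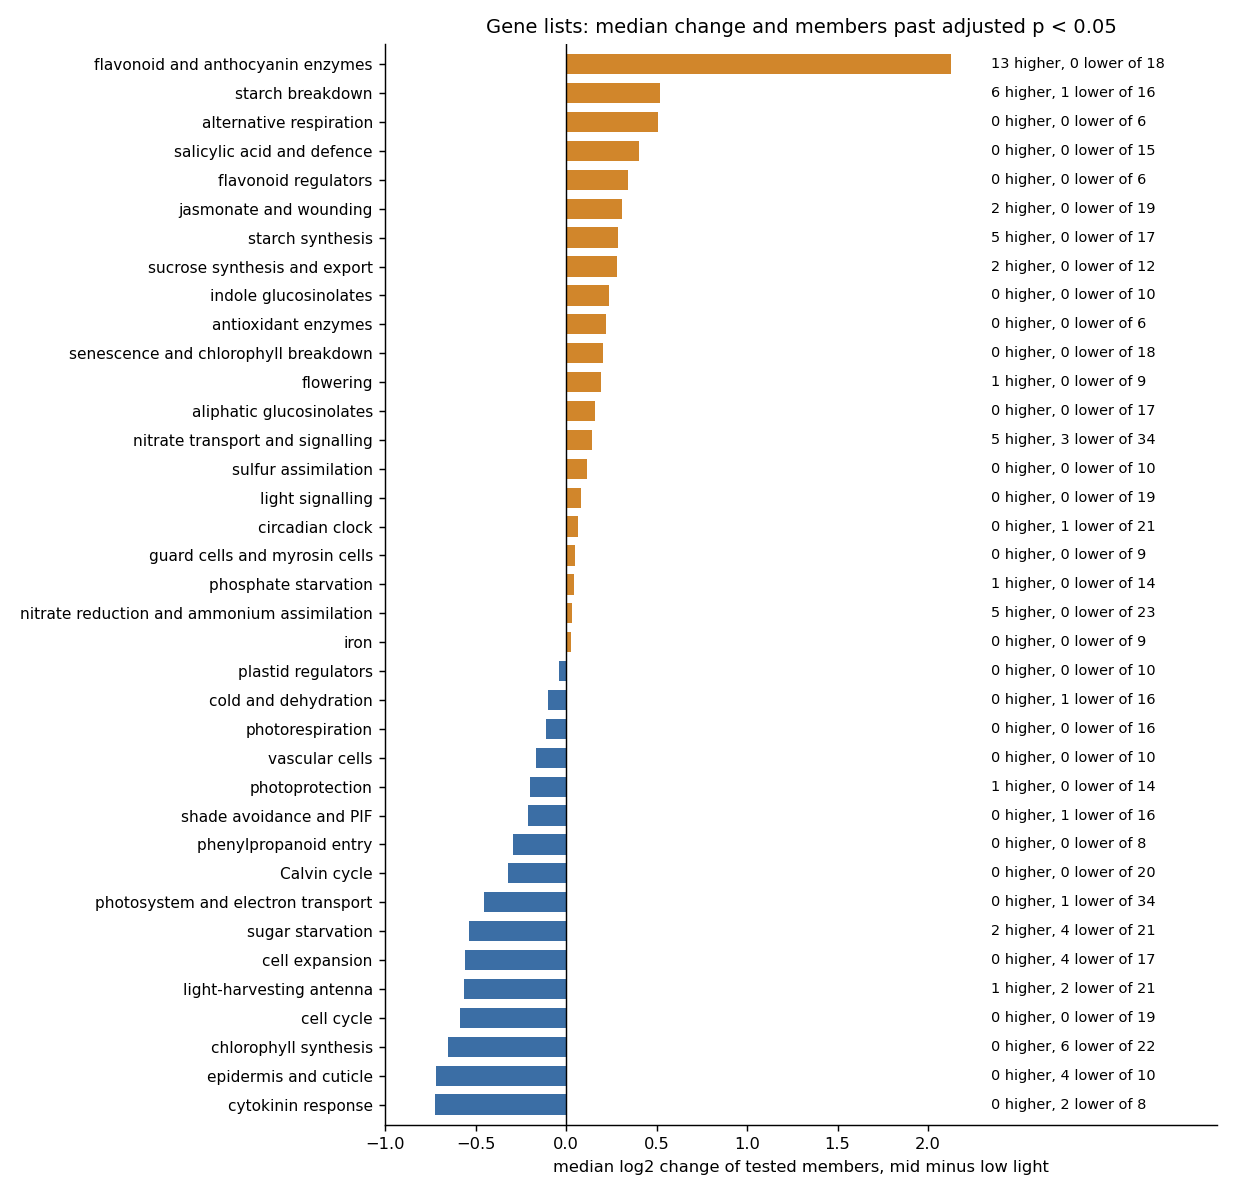
Median log2 change (horizontal axis, mid minus low light) of the tested members of 37 gene lists, with the numbers past the test in each direction of those tested at the right. Flavonoid and anthocyanin enzymes have the highest median, 2.126, and cytokinin response and epidermis and cuticle the lowest, -0.73 and -0.72.

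The flavonoid and anthocyanin enzymes had the highest median change of the lists. Of 21 genes on the list 18 had enough counts, all 18 had a positive change, 13 were higher past the test and 0 lower, and the median was 2.126 on the log2 scale against 0.0055 for all tested genes. LDOX, which makes the coloured anthocyanidins, had 0, 0.359 and 3.33 CPM in low light and 2.23, 69.9 and 310.4 in mid light. All but 1 of the mid light plants exceeded every low light plant, and the change was 6.82 ± 1.19, adjusted p = 0.00888. DFR, the step before it, had 0.0933, 0.377 and 25.4 CPM in low and 0.413, 126 and 461 in mid light. Low light replicate 1 alone exceeded 10 CPM among the low light plants, and mid light replicate 6 alone stayed under 1 CPM among the mid light plants. The change was 6.07 ± 1.31, adjusted p = 0.0197.

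The enzymes that decorate the anthocyanin were separated in a similar way. UGT75C1, which adds a glucose, had 0.517, 0.812 and 2.32 CPM in low and 3.02, 40.3 and 249 in mid light, so that the groups did not overlap (5.63 ± 0.901, adjusted p = 0.00593). 5MAT, which adds a malonyl group, was likewise without overlap, at 0, 0 and 1.41 CPM against 1.65, 17.2 and 67.8 (6.33 ± 1.12, adjusted p = 0.00934). UGT79B1, a xylosyltransferase, had 0, 0.436 and 1.71 CPM against 1.65, 36.1 and 117 (6.13 ± 0.92, adjusted p = 0.00413). For this gene the highest low light plant only just exceeded the lowest mid light plant. GSTF12, needed to bring anthocyanin into the vacuole, had 0.0933, 0.631 and 7.16 CPM in low and 6.45, 65.6 and 223 in mid light (6.09 ± 1.08, adjusted p = 0.00934), where the highest low light plant just passed the lowest mid light plant.

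The earlier steps, shared with flavonols, changed less. CHS, the entry enzyme, had 11.6, 22.6 and 410.1 CPM in low and 69, 204 and 719.7 in mid light (2.67 ± 0.71, adjusted p = 0.0412). Low light replicate 1 alone made the groups overlap, since the other low light plants reached at most 35.98 CPM. The change of CHI was 1.86 ± 0.39, adjusted p = 0.0173, of its non-catalytic relative CHIL 2.396 ± 0.62, adjusted p = 0.0379, of F3H 1.505 ± 0.33, adjusted p = 0.0215, of the flavonol synthase FLS1 1.33 ± 0.305, adjusted p = 0.0241 and of the glucosyltransferase UGT78D2 1.73 ± 0.34, adjusted p = 0.0131. UGT84A2, a sinapate glucosyltransferase, completed the 13 with 1.05 ± 0.23, adjusted p = 0.0201. F3'H had a change of 2.83 ± 0.80 that missed the threshold with an adjusted p = 0.0513. No flavonoid regulator passed (0 of 6 tested of 13; 3 at an unadjusted p under 0.05, 3 with DESeq2 and 1 with limma-voom). Among them were PAP1 (MYB75), an activator of anthocyanin genes, with 1.21 ± 0.36, adjusted p = 0.0582, and the flavonol regulator MYB111 with 2.04 ± 0.65, adjusted p = 0.074. The calls of LDOX, UGT75C1, UGT79B1, 5MAT, GSTF12 and UGT78D2 held whichever library was left out. The count of higher list members ran from 8 (without low light replicate 3 or 4, or mid light replicate 5) to 16 over these fits and was 0 without code set 2, 3 without set 3 and 14 without set 1.

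**Figure D2:**
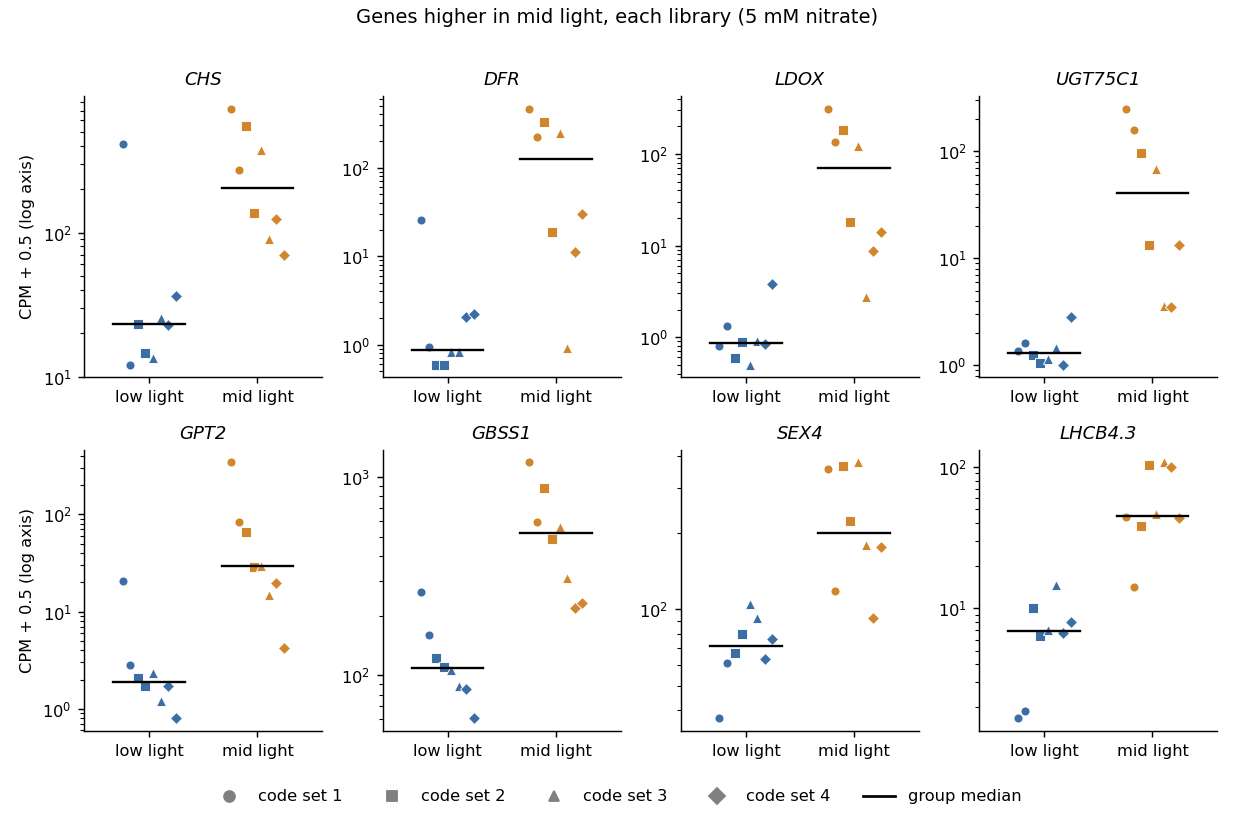
CPM plus 0.5 on log axes for 8 genes higher in mid light, 1 point per plant with the code set as the symbol and a bar at the group median. UGT75C1 does not overlap between groups, and in CHS, GPT2 and GBSS1 low light replicate 1 is the only low light plant that reaches the mid light range.

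The 250 bases before the annotated start of each tested gene were read for short motifs, since light-regulated flavonoid genes are known to carry G-boxes, the palindrome CACGTG bound by bZIP factors such as HY5 and by bHLH factors. Of 17553 tested genes with a window, 7.53% held CACGTG, as did 7.61% of the genes higher in mid light, 10% of those lower and 6 of the 18 tested flavonoid genes (33.3%). Of the other lists searched, 31.2% of the starch breakdown, 29.4% of the starch synthesis and 23.8% of the antenna genes held it. So did 9.09% of the chlorophyll synthesis and 4.76% of the sugar starvation genes. It was in 0 of the 17 cell expansion and 0 of the 10 epidermis and cuticle genes. TATCCA, an element known from sugar-regulated amylase genes of rice, was in 14.3% of all windows, 9.87% of the higher and 25.2% of the lower genes. By list it was in 38.1% of the antenna, 36.4% of the chlorophyll synthesis and 23.8% of the sugar starvation genes. It was in 12.5% of the starch breakdown, 11.1% of the flavonoid, 10% of the epidermis and cuticle and 5.88% of the starch synthesis genes. Of 17 cell expansion genes only 1 held it (5.88%), namely EXPA8. GATAAG (I-box) was in 12.5% of all windows, 12.9% of the higher and 20.7% of the lower genes. The other motifs searched, on both strands throughout, were ACGT (which lies inside CACGTG) at 43.8%, 47.9% and 42.3%, AAAATATCT at 2.52%, 4.37% and 2.23%, CCGAC at 13.4%, 14.2% and 11.8%, TTGAC at 44.2%, 45.5% and 45.4%, and ACCTACC at 1.18%, 0.971% and 1.34%. These shares describe letters in a window and carry no test. HY5 itself, a bZIP factor of light signalling, did not pass the test (0.503 ± 0.299, adjusted p = 0.315).

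Shown here, from the RefSeq TAIR10.1 genome and 5′ to 3′ on the gene's strand, are windows of 4 flavonoid genes that rose, with each CACGTG in capitals, picked because they hold it. The motif lies 233 bases before the start of CHS, 67 before that of CHIL, 14 before that of DFR, and 171 and 128 before that of UGT79B1. The window of CHS is chr5:4488226-4488475 on the plus strand, that of CHIL chr5:1563036-1563285 on the plus strand, that of DFR chr5:17166033-17166282 on the minus strand and that of UGT79B1 chr5:21938397-21938646 on the minus strand.
CHS: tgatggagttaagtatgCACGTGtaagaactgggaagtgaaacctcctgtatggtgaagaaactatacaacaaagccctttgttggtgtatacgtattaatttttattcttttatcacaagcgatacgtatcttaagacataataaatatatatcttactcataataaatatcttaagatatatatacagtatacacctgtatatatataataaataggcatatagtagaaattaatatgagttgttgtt
CHIL: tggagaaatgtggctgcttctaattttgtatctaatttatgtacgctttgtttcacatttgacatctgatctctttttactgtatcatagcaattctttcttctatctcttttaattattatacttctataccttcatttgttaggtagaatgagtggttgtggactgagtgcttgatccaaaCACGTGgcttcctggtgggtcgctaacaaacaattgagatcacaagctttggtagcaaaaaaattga
DFR: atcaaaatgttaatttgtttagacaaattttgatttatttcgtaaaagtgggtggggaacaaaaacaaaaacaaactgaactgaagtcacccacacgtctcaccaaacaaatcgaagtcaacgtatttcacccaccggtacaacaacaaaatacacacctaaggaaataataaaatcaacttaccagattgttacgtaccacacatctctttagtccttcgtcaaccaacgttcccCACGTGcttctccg
UGT79B1: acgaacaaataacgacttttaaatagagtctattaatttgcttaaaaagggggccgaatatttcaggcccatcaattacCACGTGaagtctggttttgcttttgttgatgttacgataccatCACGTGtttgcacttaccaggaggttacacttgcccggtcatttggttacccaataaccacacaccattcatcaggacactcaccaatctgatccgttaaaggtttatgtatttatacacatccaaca

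Genes of both starch synthesis and starch breakdown rose. Of 17 synthesis genes 5 were higher and 0 lower, with a median of 0.29, and of 16 breakdown genes 6 were higher and 1 lower, with a median of 0.52. GBSS1, which makes amylose, had 60.4, 108 and 263 CPM in low and 219, 522 and 1183 in mid light (2.1 ± 0.22, adjusted p = 0.000524). Low light replicate 1 alone reached the lowest mid light plants. GPT2, the plastid glucose 6-phosphate carrier known from acclimation to higher light, had 0.302, 1.4 and 19.9 CPM against 3.77, 28.6 and 341 (4.32 ± 0.55, adjusted p = 0.00153). Here too low light replicate 1 was the only plant to enter the range of mid light, the other 7 reaching at most 2.3 CPM. The ADP-glucose pyrophosphorylase subunits differed: the large subunits APL3 (1.63 ± 0.28, adjusted p = 0.00887) and APL2 (0.55 ± 0.11, adjusted p = 0.0149) and the small subunit APS1 (0.44 ± 0.11, adjusted p = 0.0361) rose, while APL1, the main leaf large subunit, had a change of -0.38 ± 0.17 with an adjusted p = 0.177.

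Among the breakdown genes SEX4, a phosphoglucan phosphatase, had 36.7, 71.4 and 104 CPM in low and 91.6, 199.8 and 378 in mid light (1.68 ± 0.28, adjusted p = 0.00729). Only mid light replicate 7 lay within the low light range. The debranching enzyme ISA3 changed by 2.23 ± 0.49, adjusted p = 0.0203, the chloroplast beta-amylase BAM3 by 1.098 ± 0.22, adjusted p = 0.0143, the extra-plastidic BAM5 by 1.43 ± 0.31, adjusted p = 0.0208, and the cytosolic maltose-metabolising DPE2 by 0.86 ± 0.21, adjusted p = 0.0321 and PHS2 by 1.08 ± 0.28, adjusted p = 0.0386. BAM9, a beta-amylase relative without known catalytic activity, was the one that fell, from 12.6, 17.3 and 29.6 CPM to 6.8, 8.94 and 14.3 (-1.02 ± 0.22, adjusted p = 0.0208). Of the sucrose genes, 2 of 12 tested rose, and neither passed without low light replicate 3 or 4 or mid light replicate 3 or 5: the sucrose-phosphate synthase SPS1F (0.78 ± 0.18, adjusted p = 0.0225) and the UDP-glucose pyrophosphorylase UGP1 (0.54 ± 0.13, adjusted p = 0.0316). GBSS1, GPT2, APL2, APL3, SEX4, BAM3 and BAM9 passed whichever library was left out. The higher synthesis genes numbered 4 to 7 in these fits and the higher breakdown genes 2 to 6, with 3 without low light replicate 3 or 5 or mid light replicate 5 and 2 without low light replicate 4, and without code set 2 these counts were 2 and 0.

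The sugar starvation list holds markers known to rise when sugar is short and also bZIP factors of sugar signalling. Of its 21 tested genes 4 were lower and 2 higher, with a median of -0.54. SEN1, an early marker of darkness and starvation, had 10.1, 15 and 25.3 CPM in low and 1, 2.68 and 15.8 in mid light (-2.05 ± 0.46, adjusted p = 0.022). Mid light replicate 8 alone lay within the low light range. The beta-galactosidase BGAL4 (-1.95 ± 0.44, adjusted p = 0.0222), DIN4 of branched-chain amino acid breakdown (-0.71 ± 0.18, adjusted p = 0.0362) and the starvation-responsive factor bZIP1 (-1.35 ± 0.37, adjusted p = 0.0462) were the others that fell. The 2 that rose were bZIP11 (2.04 ± 0.35, adjusted p = 0.00774), a factor whose translation sucrose represses, and BCAT2 (4.72 ± 0.82, adjusted p = 0.00887), a branched-chain aminotransferase. ASN1, the asparagine synthetase of the dark, had 70.5, 389.8 and 772 CPM in low and 1.79, 68.1 and 290.2 in mid light, a large but uneven difference that did not pass (-2.69 ± 0.94, adjusted p = 0.098). The number lower ran from 1 (without low light replicate 4 or 5 or mid light replicate 3 or 5) to 9 (without low light replicate 1), with 2 without low light replicate 2, 3 or 7 or mid light replicate 2 or 4 and 7 without mid light replicate 6.

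The photosynthetic genes lay on the lower side with few calls. All 34 tested photosystem and electron transport genes had a negative change with a median of -0.46, and 1 passed, PSB27 of photosystem II assembly (-0.81 ± 0.23, adjusted p = 0.0498). Of 21 antenna genes 19 were negative, with a median of -0.56, and 2 were lower past the test: LHCB4.2 (-0.62 ± 0.17, adjusted p = 0.0426) and LHCB2.2 (-0.77 ± 0.21, adjusted p = 0.0481). LHCB2.2 and LHCB2.1 (-0.63 ± 0.19, adjusted p = 0.0581) are near-identical copies whose reads the counting may have split. LHCB4.3, a rarely used isoform of the CP29 antenna protein, went the other way, from 1.16, 6.34 and 14 CPM to 13.6, 44.7 and 107 (3.42 ± 0.37, adjusted p = 0.000579). Low light replicate 6 was the only low light plant to reach mid light replicate 2, the lowest of its group. The calls of PSB27, LHCB4.2 and LHCB2.2 were kept in 3, 4 and 4 of the 16 fits that left out 1 library, and that of LHCB4.3 in all 16. Without mid light replicate 6 the lower antenna and photosystem genes numbered 8 and 6, and without mid light replicate 7 they numbered 4 and 5. The Calvin cycle genes had 0 of 20 past the test (4 at an unadjusted p under 0.05, 2 with DESeq2, 0 with limma-voom) and a median of -0.32. RBCS1A had 7492, 17690 and 19420 CPM in low and 2580, 8402 and 22030 in mid light (-0.64 ± 0.296, adjusted p = 0.193).

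Chlorophyll synthesis was negative in all 22 genes, with a median of -0.65 and 6 past the test, all lower. PORA, the light-sensitive protochlorophyllide reductase of seedlings, had 0.145, 10.8 and 21.6 CPM in low and 0, 1.03 and 4.3 in mid light (-2.95 ± 0.47, adjusted p = 0.00579). Low light replicates 1 and 2, at 0.145 and 0.622 CPM, lay within the mid light range and the other low light plants above it. CAO, which makes chlorophyll b, had 294, 556 and 631 CPM against 171, 356 and 477 (-0.69 ± 0.14, adjusted p = 0.0169). GUN4 (-0.72 ± 0.16, adjusted p = 0.0222), a regulator of magnesium chelatase, its subunit CHLD (-0.66 ± 0.17, adjusted p = 0.0378), the methyltransferase CHLM (-0.85 ± 0.23, adjusted p = 0.0455) and HEMC (-0.86 ± 0.22, adjusted p = 0.0374), an earlier porphyrin enzyme, were the other 4. The number lower was 2 without low light replicate 3, 4 or 5 or mid light replicate 5, 3 without low light replicate 2 or 6 or mid light replicate 1, 2, 3, 4 or 8, 10 without mid light replicate 6 and 13 without mid light replicate 7. It was 0 without the block and 1 with a replicate block, and only PORA and CAO passed whichever library was left out. ELIP1, an early light-induced protein that binds chlorophyll under strong light, rose from 0.302, 1.75 and 3.57 CPM to 1.37, 6.47 and 43.4 (2.76 ± 0.41, adjusted p = 0.00409), the 1 of 14 tested photoprotection genes that passed. The mid light replicates 6 and 7 lay within the low light range.

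The first enzymes of nitrate reduction did not pass the test. Nitrate reductase NIA1 had 36.5, 76.8 and 94 CPM in low and 5.01, 40.8 and 152 in mid light, NIA2 had 246, 486 and 732 against 149, 319.7 and 989, and nitrite reductase NIR1 had 75.7, 284 and 371 against 51.8, 252 and 473. The ranges of all 3 overlapped widely and none passed: their changes were -0.64 ± 0.58, adjusted p = 0.5261, -0.24 ± 0.37, adjusted p = 0.735 and -0.029 ± 0.26, adjusted p = 0.963. In that list 5 of 23 tested genes rose and 0 fell, with a median of 0.03. G6PD2, a plastid dehydrogenase that supplies reductant, had 7.09, 8.13 and 9.84 CPM in low and 11.9, 16.2 and 21.6 in mid light, without overlap (0.92 ± 0.11, adjusted p = 0.00105). The others were the cytosolic glutamine synthetases GLN1;1 (1.39 ± 0.27, adjusted p = 0.012) and GLN1;4 (1.69 ± 0.42, adjusted p = 0.0327), the glutamate synthase GLU2 (0.82 ± 0.16, adjusted p = 0.0133) and the ferredoxin reductase RFNR1 (0.51 ± 0.103, adjusted p = 0.0149), a type known from roots. All but GLN1;4 passed whichever library was left out. Without code set 2 only 6 genes of all the lists together passed, and without code set 3 only 12. G6PD2 was among them in both fits.

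Of the nitrate transport and signalling list 34 of 42 genes could be tested, of which 5 rose and 3 fell, with a median of 0.14. The nitrate transporter and sensor NPF6.3 had 19.7, 41.2 and 56.5 CPM in low and 66.5, 77.9 and 99 in mid light (1.05 ± 0.15, adjusted p = 0.00267). CLCA, the exchanger that loads nitrate into the vacuole, fell from 97.5, 164 and 210.5 CPM to 6.25, 17.8 and 90.3 (-2.42 ± 0.59, adjusted p = 0.0319). LBD37, a nitrate-induced repressor of nitrogen-responsive and anthocyanin genes, fell from 51.5, 68.9 and 118 CPM to 14.9, 26.5 and 41.8 (-1.38 ± 0.26, adjusted p = 0.0113). In none of these 3 genes did any plant of one light level reach the range of the other. CEPD1, a glutaredoxin-like signal sent from shoot to root when nitrogen is short, was the fourth gene of the list without overlap, at 1.53, 3.08 and 3.73 CPM against 4.13, 5.6 and 13.1 (1.15 ± 0.24, adjusted p = 0.0164), and its relative CEPD2 rose as well (0.98 ± 0.21, adjusted p = 0.0174). The NIN-like factors NLP8 (1.17 ± 0.25, adjusted p = 0.0197) and NLP5 (0.703 ± 0.16, adjusted p = 0.0231) rose and HHO2 (-0.76 ± 0.19, adjusted p = 0.0329), a repressor of the GARP family, fell. The high-affinity transporter NRT2.1 had too few counts to test, at most 1.97 CPM in any of the 16 libraries. The calls of NPF6.3, LBD37, CEPD1 and CEPD2 held whichever library was left out. That of CLCA was lost without low light replicate 3, 4 or 5 or mid light replicate 1, 2, 3, 4 or 5 (highest adjusted p = 0.0704, without mid light replicate 3), although its values did not overlap. Without low light replicate 3 or 4 or mid light replicate 5, 3 genes of the list rose; 1 fell without low light replicate 3, 4 or 5 or mid light replicate 1 to 5, and 5 without mid light replicate 6. No gene of the list passed without code set 2.

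**Figure D3:**
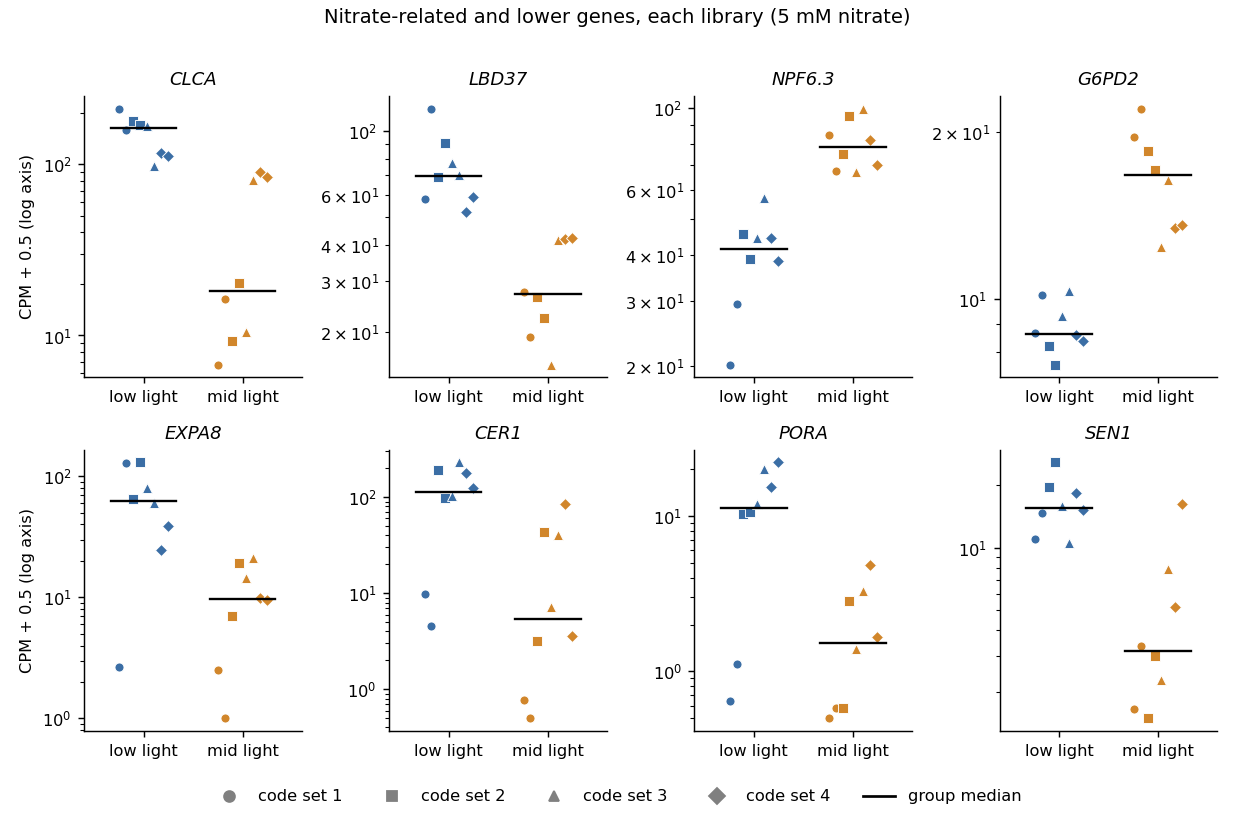
CPM plus 0.5 on log axes for 4 nitrate-related genes (top) and 4 genes lower in mid light (bottom), 1 point per plant with the code set as the symbol and a bar at the group median. CLCA, LBD37, NPF6.3 and G6PD2 do not overlap between the light levels; EXPA8, CER1, PORA and SEN1 do.

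Of 17 tested cell expansion genes 4 were lower and 0 higher, 12 had a negative and 5 a positive change, and the median was -0.56. GASA6, a gibberellin-regulated peptide, had 4.51, 115 and 189.7 CPM in low and 1.1, 10.6 and 31.6 in mid light (-3.502 ± 0.72, adjusted p = 0.0156). EXPA8, a wall-loosening expansin, had 2.18, 62.3 and 129.6 CPM against 0.505, 9.2 and 20.7 (-2.91 ± 0.705, adjusted p = 0.0305). In both, low light replicate 1 was the lowest of its group by a wide gap and lay within the mid light range, as the other 7 low light plants did not fall below 54.65 and 23.97 CPM. EXPA11 (-2.14 ± 0.47, adjusted p = 0.0204) and EXPA1 (-1.54 ± 0.42, adjusted p = 0.0475) were the other 2. PRE1, a small helix-loop-helix protein of hormone-driven elongation, fell without overlap, from 13.8, 26.7 and 39.7 CPM to 1.1, 10.2 and 13.4 (-1.87 ± 0.25, adjusted p = 0.00224). Of 16 tested shade avoidance genes 1 passed, PAR1 (-1.49 ± 0.38, adjusted p = 0.0374), whose call was kept in 5 of the 16 fits that left out 1 library (highest adjusted p = 0.0852). The number of lower expansion genes was 1 without low light replicate 4, 2 without low light replicate 3 or 5 or mid light replicate 1, 3 or 5, and 7 and 8 without mid light replicates 6 and 7.

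All 10 tested epidermis and cuticle genes had a negative change, with a median of -0.72, and 4 passed. The alkane-forming CER1 had 4.04, 113 and 229.5 CPM in low and 0, 4.89 and 83.8 in mid light (-2.77 ± 0.71, adjusted p = 0.0378), CER5, a wax exporter, had 127, 178 and 276 against 47.4, 114 and 137 (-0.79 ± 0.16, adjusted p = 0.0137), and the fatty acid elongases KCS1 (-1.47 ± 0.33, adjusted p = 0.0222) and FDH (-0.71 ± 0.17, adjusted p = 0.0323) fell as well. Outside the list, FAR1 (AT5G22500), which makes fatty alcohols, changed by -2.22 ± 0.32, adjusted p = 0.00313 and the elongase KCS12 by -2.12 ± 0.54, adjusted p = 0.0367. The call of FAR1 was kept in all 16 fits that left out 1 library and that of KCS12 in 5 (highest adjusted p = 0.075). The epidermal identity factors ATML1 (-0.47 ± 0.20, adjusted p = 0.159) and PDF2 (-0.21 ± 0.20, adjusted p = 0.558) did not pass. The summed level of the list was 848.3 to 2068 CPM in low and 420.1 to 948.5 in mid light. Against it, 0 of 10 vascular and 0 of 9 guard and myrosin cell markers passed (1 and 1 at an unadjusted p under 0.05, by DESeq2 and by limma-voom), with sums of 489.9 to 754.7 against 477.9 to 896.5 CPM and of 766.1 to 6832 against 704.3 to 8002 CPM. The part of the tissue mix in these changes was not tested. The count of lower epidermis genes fell to 1 without low light replicate 3 or 4 or mid light replicate 3 or 5, to 2 without low light replicate 5 or 7, and to 0 without the block.

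As a counterpart to the G-box windows, the same 250 bases are shown for 2 genes that fell and hold TATCCA, which is in capitals. The window of PORA is chr5:21992815-21993064 on the minus strand and that of EXPA8 chr2:16950706-16950955 on the minus strand. The match lies 92 and 180 bases before the start.
PORA: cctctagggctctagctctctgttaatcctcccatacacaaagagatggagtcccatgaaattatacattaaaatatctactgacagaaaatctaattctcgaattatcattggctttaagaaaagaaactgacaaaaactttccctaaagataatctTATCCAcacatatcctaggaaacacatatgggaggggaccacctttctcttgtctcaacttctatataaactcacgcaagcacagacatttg
EXPA8: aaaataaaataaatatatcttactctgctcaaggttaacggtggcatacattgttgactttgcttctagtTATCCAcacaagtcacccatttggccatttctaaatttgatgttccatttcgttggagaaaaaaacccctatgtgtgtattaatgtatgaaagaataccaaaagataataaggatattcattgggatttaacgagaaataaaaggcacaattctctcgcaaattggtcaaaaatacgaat

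Of the other lists, cytokinin response had 2 of 8 tested genes lower, the type-A response regulators ARR8 (-0.69 ± 0.102, adjusted p = 0.00385) and ARR9 (-0.94 ± 0.24, adjusted p = 0.0374), with a median of -0.73. ARR8 had 39.4, 65.7 and 233 CPM in low and 27.5, 43.5 and 148 in mid light, so that the ranges overlapped although the difference had the same sign in every code set. The call of ARR9 was kept in 4 of the 16 fits that left out 1 library, and 4 genes of the list passed without low light replicate 1 or mid light replicate 7. The 19 tested cell cycle genes were all negative with a median of -0.59, and 0 passed (9 at an unadjusted p under 0.05, 6 with DESeq2 and 1 with limma-voom). A few more lists held 1 or 2 genes past the test, beside 6.09% of all tested genes. The tested genes that passed were 1 of 21 clock, 1 of 9 flowering and 1 of 14 phosphate starvation genes. For cold and dehydration it was 1 of 16, and for jasmonate 2 of 19. The genes were the clock-related factor RVE7 (-0.85 ± 0.17, adjusted p = 0.0159), the flowering factor SPL4 (1.57 ± 0.34, adjusted p = 0.0204), MGD2 of galactolipid synthesis (0.88 ± 0.23, adjusted p = 0.0365), the dehydration-induced KIN1 (-1.71 ± 0.44, adjusted p = 0.0378) and, for jasmonate, JAR1 (0.69 ± 0.16, adjusted p = 0.0267) and the defensin PDF1.2 (3.88 ± 0.97, adjusted p = 0.0344). Of these, RVE7 passed whichever library was left out, and SPL4, JAR1, PDF1.2, MGD2 and KIN1 in 14, 9, 7, 6 and 6 of the 16 fits. Without low light replicate 1, 6 jasmonate genes were higher and 4 shade avoidance genes lower. PDF1.2 and its near-identical copy PDF1.2c, which had the largest rise of the named genes (7.16 ± 1.34, adjusted p = 0.0114), ranged in mid light from 17.02 to 6117 and from 0.806 to 5891 CPM, and their reads may be split between them. Photorespiration, glucosinolate synthesis, salicylic acid defence, senescence, sulfur, iron, light signalling, phenylpropanoid entry, antioxidant enzymes, alternative respiration and plastid regulators had 0 members past the test. With the 5 lists of this kind named above, these 17 lists held 208 tested genes, of which 54 had an unadjusted p under 0.05, 33 passed with DESeq2 and 5 with limma-voom.

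Some of the largest or most separated changes lay outside the lists. NUDT24, a Nudix hydrolase, had 0.373, 1.9 and 7.42 CPM in low and 7.14, 58.4 and 244 in mid light (4.998 ± 0.77, adjusted p = 0.00475), and PGL1, a phosphogluconolactonase, had 4.58, 9.71 and 11.6 against 0.0687, 1.22 and 6.61 (-2.41 ± 0.504, adjusted p = 0.0173). In NUDT24 low light replicate 1 just passed mid light replicate 7, and in PGL1 mid light replicate 6 lay among the low light plants. Chosen after their values were seen, the amino acid permease AAP6 rose from 39, 50.6 and 73.1 CPM to 75.5, 141 and 259.8 (1.37 ± 0.17, adjusted p = 0.000966), the factor MYB73 by 1.26 ± 0.18, adjusted p = 0.00281, the transporter ABCC4 by 1.78 ± 0.22, adjusted p = 0.000966, and the phototropism protein RPT2 fell by 1.08 ± 0.18 (adjusted p = 0.00736). All 4 were without overlap between the light levels and passed whichever library was left out.

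Among the leading genes the difference had the same sign in all code sets, as the choice of these genes required, and unequal sizes. Of the 24 genes with the largest changes, 14 had the largest difference in code set 1 and 8 in set 2, and 18 had the smallest in set 4. LDOX differed by 7.65, 6.33, 4.77 and 2.62 on the log2(CPM + 0.5) scale in sets 1 to 4, and CLCA by -4.13, -3.66, -2.13 and -0.38. LHCB4.3 differed by 3.82, 2.97, 2.80 and 3.18 and CER1 by -3.42, -3.53, -3.18 and -3.11, so that these genes varied less between sets. A test of the light by code set terms found 0 of 17663 genes at an adjusted p under 0.05 and 670 at an unadjusted p under 0.05, so that no gene's change was shown to differ between sets.

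**Figure D4:**
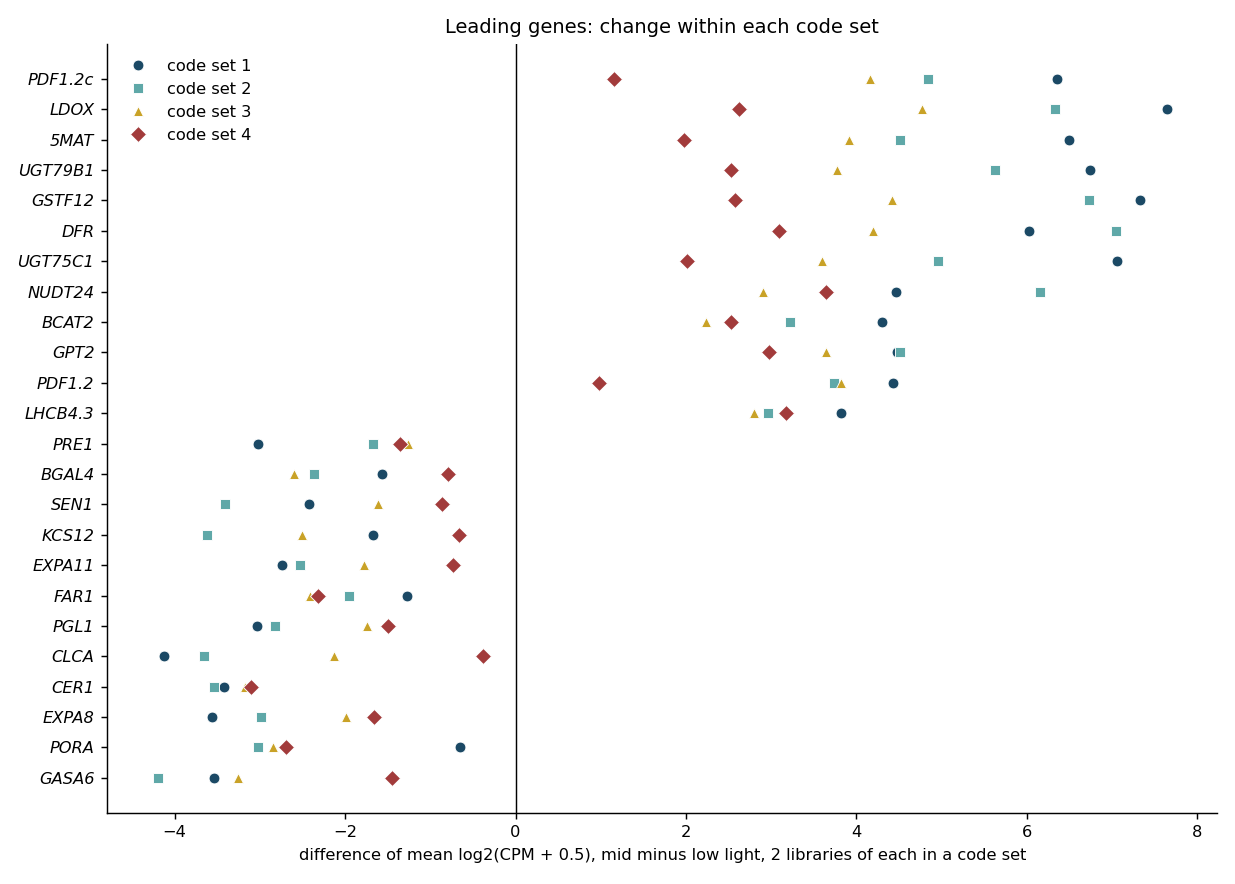
Difference of the mean log2(CPM + 0.5), mid minus low light, within each code set (2 plants of each light) for the 12 genes with the largest rises and the 12 with the largest falls. Every point lies on its gene's side of 0, which the choice of genes required, and in 18 of the 24 genes code set 4 is nearest to 0.

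The same light step at the other doses, measured in other plants, can be set beside the 5 mM change. In 1 fit of all 64 low and mid light libraries, 6683 of 18999 genes passed between mid and low light at 2 mM, 2058 at 5 mM, 49 at 10 mM and 5 at 20 mM. Of the 618 genes called higher at 5 mM, 588 were positive at 2 mM and 378 passed there (against 17.9% of all genes), 573 were positive at 10 mM and 20 passed (0.205%), and 517 were positive at 20 mM and 2 passed (0.0211%). Their median change was 0.63, 0.36 and 0.22 at 2, 10 and 20 mM and 0.87 at 5 mM. Of the 458 lower genes 430, 420 and 376 were negative at 2, 10 and 20 mM and 371 (17.3% of all genes), 8 (0.0526%) and 1 (0.00526%) passed, with medians of -1.02, -0.28 and -0.15, and -0.85 at 5 mM. The 13 flavonoid enzymes called at 5 mM all passed at 2 mM, 1 passed at 10 mM and 0 at 20 mM, with medians of 3.64, 1.375 and 1.06. The 8 nitrate transport and signalling genes all passed at 2 mM with the same sign, had the same sign at 10 mM with 0 past the test, and 4 had it at 20 mM. Since the genes were chosen at 5 mM, their 5 mM medians are not comparable with the others as a test.

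**Figure D5:**
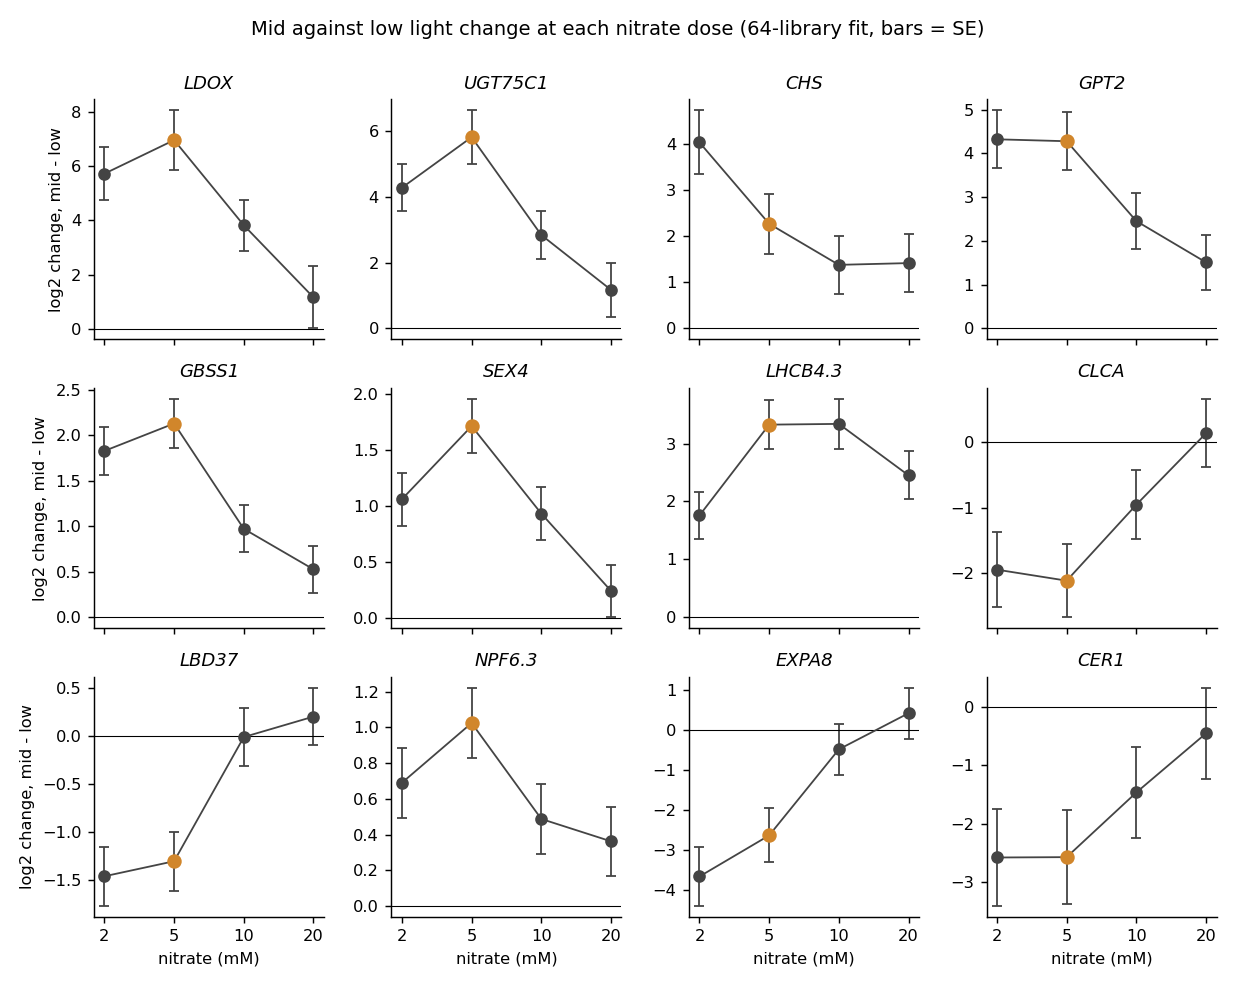
Log2 change, mid minus low light, at 2, 5, 10 and 20 mM nitrate for 12 genes, from the fit of 64 libraries, with SE bars and the 5 mM value in orange. LBD37 and EXPA8 have changes of -1.31 and -2.64 at 5 mM and -0.01 and -0.49 at 10 mM; LHCB4.3 has 1.76, 3.33, 3.34 and 2.45.

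The difference between doses was itself tested. Against the mean of the other 3 doses the 5 mM change differed for 1 of 18999 genes (0.00526%), with 1997 at an unadjusted p under 0.05: the change of AT5G05360 at 5 mM minus the mean change at the other doses was -0.45 ± 0.09 (adjusted p = 0.0389). It had 12.93, 14.28 and 18.63 CPM in low and 9.13, 10.32 and 11.61 in mid light at 5 mM, without overlap. Against 10 mM and 20 mM alone 0 genes differed (1442 and 2052 at an unadjusted p under 0.05), so the smaller counts there are not shown to be smaller changes of any gene. At 2 mM the light step differed from that at 5 mM for 101 genes (0.532%), 19 with a higher and 82 with a lower change at 5 mM.

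The 5 largest differences from 2 mM in each direction follow. The change of DDF1, a dehydration-type transcription factor, was lower at 5 mM than at 2 mM, with a difference of -8.87 ± 2.15 (adjusted p = 0.0494), as was that of ABR1, a factor of the same family, with -6.305 ± 1.51 (adjusted p = 0.0494), of SRO5 with -6.25 ± 1.598 (adjusted p = 0.0499), of the jasmonate repressor JAZ8 with -5.52 ± 1.34 (adjusted p = 0.0494) and of the expansin-like EXLA1 with -5.297 ± 1.02 (adjusted p = 0.0237). At 5 mM DDF1 lay near the floor, at most 2.98 CPM in any plant. ABR1 and SRO5 at 5 mM were highest in low light replicate 1, at 79.4 and 33.33 CPM, where the next highest plants had 4.48 and 13.05. JAZ8 had medians of 2.6 CPM in low and 8.14 in mid light at 2 mM and of 2.34 and 7.12 at 5 mM. Its fitted changes were 5.33 and -0.19, and low light replicate 1 at 5 mM held 87.48 CPM. On the higher side stood UMAMIT36, an amino acid exporter family member, with 3.404 ± 0.81 (adjusted p = 0.0494): its medians were 6.65 in low and 2.21 CPM in mid light at 2 mM and 2.1 and 7.98 at 5 mM, and its groups at 5 mM did not overlap (2.46 ± 0.396, adjusted p = 0.00605). CYP71B2 with 1.19 ± 0.301 (adjusted p = 0.0497), HB5 with 1.14 ± 0.27 (adjusted p = 0.0494), TLP6 with 1.04 ± 0.26 (adjusted p = 0.0494) and KNAT4 with 0.94 ± 0.22 (adjusted p = 0.0494) completed the 5 largest. The count of 101 was 358 without code set 1, 0 without set 2, 1 without set 3, 10 with a replicate block and 2 with limma-voom. For the genes named in this paragraph, such alternatives kept the call in 26 fits and lost it in 54.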

How the data were processed

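Leaf RNA was sequenced with a stranded poly-A kit. The deposited table holds raw counts of reads per locus for 32833 loci in 96 columns, made by the authors with STAR 2.5.3a, TAIR10 and featureCounts per the submitters' processing notes; the strand setting is not given in the sources used here. The 0 columns without a sample needed no exclusion. Totals of the 16 libraries were 9923608 to 16087620 reads, and no replicate pair agreed within sampling noise (chi-square per degree of freedom at least 8.575 over 56 pairs).

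Counts were filtered by edgeR's filterByExpr and tested with edgeR 4.0.16 in R 4.3.3 (robust quasi-likelihood, TMM, code set plus light, 11 residual degrees of freedom, Benjamini-Hochberg over 17663 genes). The standard error is the size of the log2 change divided by the root of the F statistic. CPM use TMM factors over all 96 libraries. The dose comparison was 1 fit of 64 libraries with a mean per group and a code set term. Each library is 1 plant. The labels do not say whether equal replicate numbers mark a shared event, and the numbers did not pair the samples by their deviations. DESeq2 1.42.0 and limma 3.58.1 (voom) were among the alternatives. On simulated counts for 17663 genes in this comparison, 18%, 64%, 92% and 100% of 50 genes each with log2 changes of 0.5, 1, 2 and 4 were recovered, with 7 false calls. The changed genes were drawn only from those above a minimum mean count, and no plant was made to deviate as a whole. These rates therefore need not hold for the real libraries.

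The comparison, the gene lists and the genes named were chosen with earlier results of these data known. Named by rule were the 12 largest changes in each direction among called genes with a symbol, a mean of at least 5 CPM and the same sign in all 4 code sets, up to 4 members of each list by smallest p, and a few reference genes. Other list members past the test were named after their values were seen. Promoter windows of 250 bases are from RefSeq TAIR10.1, and 17553 of the tested genes had one; 8 motifs were searched and those shown were chosen after the shares were seen. Nothing about biomass, pigments or elements was analysed here.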

Additional observations from a re-analysis of the deposited data

Results flagged for a closer look

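In 28 of 218 groups of 8 plants 1 plant lay far from the rest. Independent normal samples would give about 1 in 20. That rate is no benchmark here, since the groups share the same plants and many of the genes were chosen on these data. The gap to the nearest plant is given as a share of the group's range. For genes the share was taken on the log2(CPM + 0.5) scale, not on CPM, and for the rank correlation on its own scale. Low light replicate 1 was the plant concerned in most of the 28. It was the highest of its group in CHS (0.687; 410.1 CPM against 11.62 to 35.98), DFR (0.651), UGT84A2 (0.764), PAP1 (0.533), GPT2 (0.614) and ABR1 (0.618). It was the lowest in DPE2 (0.593), ISA3 (0.538), PHS2 (0.5265), CHLM (0.529), GASA6 (0.66), EXPA8 (0.57), PAR1 (0.643), ARR9 (0.868; 12.88 CPM against 43.16 to 51.78), UMAMIT36 (0.527) and HB5 (0.534). Its mean rank correlation with its own group was also far below that of the other plants (0.722). The 86 called genes that were tested without this plant, all those named but HB5, kept their call. So did 1069 of all 1076 called genes, in a fit where 2117 passed. The 86 were chosen for passing with this plant included, so their kept calls are no independent support.

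Mid light replicate 2 was the lowest of its group in APS1 (0.644), CER5 (0.679), FDH (0.605), ARR9 (0.527) and the mean rank correlation (0.61). Low light replicate 8 was the highest in LDOX (0.527), UGT75C1 (0.544) and GSTF12 (0.573). Low light replicate 2 was the highest in NLP5 (0.584) and EXPA1 (0.616), and mid light replicate 7 in DDF1 (0.815).

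The mid against low change differed between doses by a test of the difference itself. Against the mean of the other doses it was lower at 5 mM for AT5G05360 (-0.453), and against 2 mM as well (-0.511). Against 2 mM it was higher for UMAMIT36 (3.40), CYP71B2 (1.19), HB5 (1.14), TLP6 (1.04) and KNAT4 (0.944). It was lower for DDF1 (-8.87), ABR1 (-6.305), SRO5 (-6.25), JAZ8 (-5.52) and EXLA1 (-5.297). At 5 mM DDF1 reached at most 2.98 CPM, and ABR1, SRO5 and JAZ8 were highest in low light replicate 1.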

How the results depend on the processing

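The libraries held at least 9923608 counted reads, and the part of depth in the calls was not tested. The count of 1076 genes past the test was 1854 with all 96 libraries and the code set block and 2503 with DESeq2, 204 without a block, 44, 111 and 703 without code sets 2, 3 and 4, and 0 in each code set alone (4 libraries; 1085, 3066, 1309 and 1351 genes at an unadjusted p under 0.05). Leaving out 1 library gave 383 (without low light replicate 3) to 2179 (without mid light replicate 7). Other scalings, filters, limma-voom, removal of organelle genes, the 96 libraries without a block and omission of code set 1 stayed within 1.5 times, from 786 to 1434. Similar counts did not mean the same genes. Of the 1076, 468 also passed with the 96 libraries without a block and 696 without code set 1. Each of the other settings in this group kept 771 (no filter) to 1076 (at least 10 counts in 8 libraries). Calls on the gene lists, 74 in the main test, numbered 29 without a block, 112 with all 96 libraries and the block, 172 with DESeq2, 6 and 12 without code sets 2 and 3, 0 in each set alone, and 35 (without low light replicate 4) to 117 (without low light replicate 1 or mid light replicate 7) when 1 library was left out. The cause was not tested, other than that the omissions use fewer libraries.

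With a replicate block in place of the code sets, 394 genes passed, 37 on the lists, 10 for the dose difference from 2 mM and 0 for that from the other doses. The same-numbered plants did not all deviate together (correlations from -0.118 for replicate 3 to 0.515 for replicate 4, and 2 of 8 low light libraries most like their own number), so the numbers were not used as pairs. Within a code set, the mean deviation of the 2 low light plants and that of the 2 mid light plants correlated by 0.361 to 0.728. These are means of 2 plants, so they are not comparable with the correlations of single plants.

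The 1 gene whose change at 5 mM differed from the other doses became 0 without a block and without any of code sets 1, 2, 3 or 4. The 101 genes that differed from 2 mM became 153 with RLE factors, 2 with limma-voom, and 358, 0 and 1 without code sets 1, 2 and 3. Without code set 4 the mitochondrial share was higher in mid light by 0.0604 percentage points (exact permutation p = 0.0278).

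For 86 called genes named in the text (all but HB5), 2006 of the values under 31 alternatives kept the call and 658 lost it, with 0 reversed. The kept signs are no independent support, since the genes were chosen for passing the main test on the same libraries. GBSS1, GPT2, LHCB4.3, ELIP1, G6PD2, AAP6 and ABCC4 passed under all 31. Signs reversed only among genes that did not pass: HY5 was -0.11 in code set 3 alone, NIA1 0.89 in set 4 alone, and NIA2 0.060 without set 2, 0.029 in set 3 alone and 0.96 in set 4 alone. NIR1 was 0.0094 without a block, 0.017 with 96 libraries and no block, 0.077, 0.065 and 0.020 without sets 1, 2 and 3, 0.72 in set 4 alone, and from -0.16 (without mid light replicate 6) to 0.10 (without low light replicate 1) when 1 library was left out.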
